A study of Mus musculus with 9 samples.

Results

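The mitotic cyclins, kinases and activating phosphatases described here are 10 genes: the kinase Cdk1, the cyclins Ccna2, Ccnb1 and Ccnb2, the kinases Plk1, Aurka, Aurkb and Melk, and the phosphatases Cdc25b and Cdc25c. They were taken by name from a deposited table of 12339 genes in mouse lung tumour cells, and all 10 were found there. All 10 also passed a filter on low reads that left 12326 genes for testing. Each gene had at least 70 reads in its lowest library.

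The tumour cells are KP-GFP cells of C57BL/6 origin, which carry green fluorescent protein in all groups; the labels do not spell out KP. They were grown as spheroids for 7 days with lung tissue-resident macrophages (TRMs, which are alveolar macrophages), with bone-marrow monocytes, or alone, starting from 2500 tumour cells and, in the co-cultures, 5000 added cells. For each condition 32 spheroids were pooled, GFP-positive cells were sorted, and RNA was sequenced from 3 libraries per group, 9 in all. The alone group received no added cells, and nothing in the labels says whether the 3 libraries of a group came from separate cultures, so p-values measure the spread between these libraries, which may be technical. The comparisons address the direct effect of either myeloid population on the tumour cells, as the series design states it. Libraries held 16001895 to 32771448 reads over the table. Levels are given in CPM (read counts scaled to a common library size by the authors), and each deposited value carries 0.5 read on top of its whole reads.

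Entry into mitosis is driven by the kinase Cdk1 bound to cyclin A2, B1 or B2. Wee1 and Myt1 kinases hold Cdk1 inactive by phosphorylation, Cdc25 phosphatases remove those phosphates, and Plk1 and Aurora A push this switch forward. The genes are transcribed mainly in the G2 and M phases, through promoters that often carry CCAAT boxes, bound by NF-Y, and a cell cycle homology region (CHR), bound by the MuvB core with B-MYB or, in resting cells, as part of the DREAM complex. Their summed RNA in a bulk sample is widely read as a measure of cycling cells, and in bulk RNA a change in the number of cells of a kind and a change in RNA per cell cannot be told apart.

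Promoter sequence is shown because these genes moved together across the libraries and because their promoters are known for a shared layout. RefSeq promoter windows (GRCm38.p6, 250 bases before to 50 after the start) were matched for 7 of the 10 genes: Cdk1, Ccnb1, Ccnb2, Plk1, Aurka, Melk and Cdc25b. Searched on both strands, the letters CCAAT were present in 6 of the 7 windows, against 37.4% of the 32851 windows in the table. TTTGAA, the only form of the CHR searched, was present in 4 of 7, against 17.9%. Cdk1, Ccnb2, Plk1 and Aurka held both, a combination found in 6.95% of windows, and the matches did not overlap. The stretches printed run from 110 bases before the start to 15 after it, 5′ to 3′ along the gene. Letters of CCAAT boxes and of TTTGAA are in capitals. A CCAAT box on the other strand reads ATTGG. The first 5 stretches are shown for the boxes they hold and Melk, with neither CCAAT nor TTTGAA, for contrast.
Ccnb2: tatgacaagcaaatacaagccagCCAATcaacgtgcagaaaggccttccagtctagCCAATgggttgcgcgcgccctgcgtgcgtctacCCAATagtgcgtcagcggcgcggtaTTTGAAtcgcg
Cdk1: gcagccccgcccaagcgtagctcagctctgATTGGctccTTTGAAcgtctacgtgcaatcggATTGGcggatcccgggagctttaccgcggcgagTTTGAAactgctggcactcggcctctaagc
Ccnb1: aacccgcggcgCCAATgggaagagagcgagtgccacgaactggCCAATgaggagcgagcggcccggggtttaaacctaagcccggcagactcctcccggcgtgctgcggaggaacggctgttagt
Aurka: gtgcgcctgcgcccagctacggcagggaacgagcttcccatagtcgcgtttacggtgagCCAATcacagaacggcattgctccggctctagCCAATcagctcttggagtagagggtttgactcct
Plk1: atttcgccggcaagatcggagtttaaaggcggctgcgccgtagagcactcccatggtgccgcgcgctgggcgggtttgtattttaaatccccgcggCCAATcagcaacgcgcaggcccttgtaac
Melk: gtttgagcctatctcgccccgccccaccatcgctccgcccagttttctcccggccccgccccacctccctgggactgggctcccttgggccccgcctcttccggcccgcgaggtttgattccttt
They lie at chr9:70421540-70421664 on the minus strand (Ccnb2), chr10:69352898-69353022 minus (Cdk1), chr13:100786472-100786596 minus (Ccnb1), chr2:172370556-172370680 minus (Aurka), chr7:122159325-122159449 plus (Plk1) and chr4:44300807-44300931 plus (Melk). In Cdk1, Ccnb1 and Aurka, a pair of CCAAT boxes on the same strand began 32 bases apart, and in Ccnb2 3 boxes began 33 and 33 bases apart. A same-strand pair 31 to 34 bases apart was present in these 4 of 7 windows and in 0.895% of all windows. Cdk1 also holds TTTGAA at positions -71 to -66 and -15 to -10 from the start, and Ccnb2 at 5 to 10 and, before the printed stretch, at -167 to -162. The TTTGAA letters of Plk1 (31 to 36) and Aurka (33 to 38) lie past the end of the printed stretch. Of the other motifs searched on both strands, the E2F-like TTTGGCG was found in Melk only, at 13 to 19 (1.56% of windows), and the E2F-like TTCCCGC (4.6% of windows) and the TATA box TATAAA (13.6%) in none of the 7. These matches describe letters in a window and say nothing of binding in these cells.

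All 10 genes rose in tumour cells grown with TRMs and rose in those grown with monocytes, relative to tumour cells grown alone. With TRMs the folds ran from 1.39 for Cdc25b to 3.05 for Plk1, and with monocytes from 1.93 for Cdc25b to 6.2 for Plk1. Of all tested genes, limma called 10.2% higher with TRMs and 14.7% higher with monocytes at an adjusted p under 0.05. The median log2 difference of the 10 genes was 1.32 with TRMs and 2.28 with monocytes, beside 0.00 and -0.02 over all tested genes. Both comparisons use the same 3 alone libraries. With TRMs, the calls of Melk and Cdc25b depended on which libraries were in the fit, as given with each gene. For each of the 10 genes every TRM library lay above every alone library and below every monocyte library, an order that 372 of 12326 genes (3.02%) showed. Summed over the 10 genes, the level was 303.3 to 373.0 CPM with TRMs, 567.9 to 678.6 CPM with monocytes and 131.9 to 185.3 CPM alone.

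**Figure D1:**
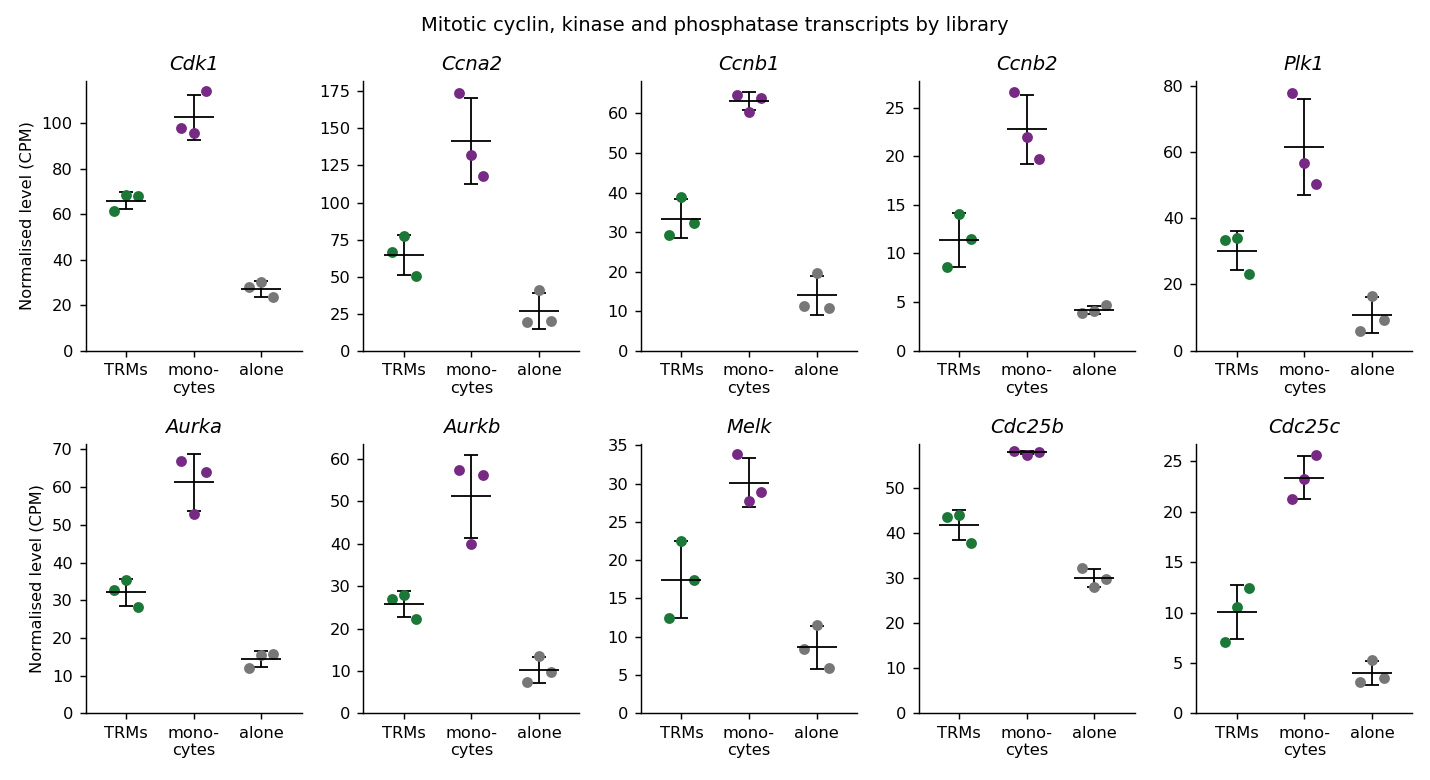
Each panel plots the normalised level (CPM, linear axis from 0) of a gene in each library, with TRMs, with monocytes and alone, as points; the long bar is the mean and the whiskers the SD of 3 libraries. In each panel the 3 TRM libraries sit between the 3 monocyte libraries above and the 3 alone libraries below, as for Cdk1, which averaged 66.0 CPM with TRMs, 102 CPM with monocytes and 27.2 CPM alone.

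Cdk1 (ENSMUSG00000019942.13, chr10:69335146-69352938, minus strand, GRCm38) is the catalytic kinase of the mitotic switch. Its level was 61.5, 68.5 and 67.9 CPM with TRMs, 97.8, 95.9 and 114 CPM with monocytes, and 28, 30.2 and 23.4 CPM alone (replicates 1 to 3). The 3 groups were well apart and the libraries within each were close, with a coefficient of variation of 5.85%, 9.49% and 12.7% in the same order of groups. Cdk1 was 2.43-fold higher with TRMs (95% interval 1.95 to 3.04; limma, log2 difference 1.28, SE 0.15, adjusted p = 9.43e-05) and 3.77-fold higher with monocytes (3.02 to 4.71; log2 1.91, SE 0.15, adjusted p = 7.15e-06). Ranked by p among 12326 genes, it stood at 102 in the TRM comparison and at 9 in the monocyte comparison, the highest rank of the 10 genes in each.

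Ccna2 (ENSMUSG00000027715.9, chr3:36564865-36572150, minus strand) encodes cyclin A2, which pairs with Cdk2 in S phase and with Cdk1 in G2. It stood at 66.5, 77.2 and 50.1 CPM with TRMs, at 174, 132 and 118 CPM with monocytes, and at 19.3, 40.8 and 19.9 CPM alone. The second alone library was 2.12 times the lowest, yet stayed below all 3 TRM libraries. The fold was 2.54 with TRMs (95% interval 1.71 to 3.78; limma adjusted p = 0.00352) and 5.56 with monocytes (3.73 to 8.27; adjusted p = 3.94e-05). Exons of Ccna2 share 510 bases with Exosc9 on the opposite strand, and since no source says that the library preparation keeps strand, some reads could belong to either. Exosc9 averaged 30.7 ± 4.94 CPM with TRMs, 35.9 ± 0.431 CPM with monocytes and 31.6 ± 3.22 CPM alone (SD, n = 3 each) and was not called in either comparison (limma adjusted p = 0.874 and 0.442).

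The B-type cyclins activate Cdk1 at the onset of mitosis. Ccnb1 (ENSMUSG00000041431.16, chr13:100778650-100786570, minus strand) had 29.2, 38.8 and 32.3 CPM with TRMs, 64.8, 60.5 and 64.0 CPM with monocytes, and 11.4, 19.7 and 10.8 CPM alone. It was 2.47-fold higher with TRMs (1.77 to 3.43; limma adjusted p = 0.00132) and 4.69-fold higher with monocytes (3.37 to 6.52; adjusted p = 2.74e-05). The annotation holds 5 pseudogenes at least 95% identical to a stretch of Ccnb1, among them Ccnb1-ps, which matches at 99.2% over 1287 bases; none is in the table, and how reads shared with them were counted is not given in the sources used here. Ccnb2 (ENSMUSG00000032218.7, chr9:70407692-70421547, minus strand) had 8.60, 14.1 and 11.5 CPM with TRMs, 26.6, 22 and 19.7 CPM with monocytes, and 3.90, 4.05 and 4.70 CPM alone. Its alone libraries were close to each other (coefficient of variation 10.1%), while those of Ccnb1 ranged over 1.82-fold. Ccnb2 was 2.65-fold higher with TRMs (1.82 to 3.86; limma adjusted p = 0.00188) and 5.37-fold higher with monocytes (3.69 to 7.82; adjusted p = 3.38e-05).

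Plk1 (ENSMUSG00000030867.7, chr7:122159439-122169873, plus strand), the Polo-like kinase that acts on Cdc25, Wee1, centrosomes and kinetochores, had the largest fold of the 10 genes in both comparisons with alone. Levels were 33.4, 34 and 23.3 CPM with TRMs, 77.8, 56.6 and 50.3 CPM with monocytes, and 6.00, 16.6 and 9.36 CPM alone. The alone libraries ranged over 2.77-fold, the widest spread of any of the 10 genes in any group, and even so the highest of them lay below the lowest TRM library. Plk1 was 3.05-fold higher with TRMs (95% interval 1.92 to 4.85; limma, log2 difference 1.61, SE 0.31, adjusted p = 0.00299) and 6.2-fold higher with monocytes (3.89 to 9.86; log2 2.63, SE 0.31, adjusted p = 6.99e-05). Its exons share 156 bases with Gm44985 on the opposite strand, which is not in the table.

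The Aurora kinases work at different places: Aurora A (Aurka) at centrosomes and spindle poles, Aurora B (Aurkb) at centromeres and the midzone within the chromosomal passenger complex. Aurka (ENSMUSG00000027496.15, chr2:172356190-172370535, minus strand) stood at 32.7, 35.3 and 28.2 CPM with TRMs, at 66.9, 52.8 and 64.0 CPM with monocytes, and at 12.0, 15.5 and 15.7 CPM alone. It was 2.23-fold higher with TRMs (1.71 to 2.92; limma adjusted p = 0.000674) and 4.26-fold higher with monocytes (3.26 to 5.57; adjusted p = 9.67e-06). Aurkb (ENSMUSG00000020897.12, chr11:69045647-69051664, plus strand) had 27.0, 28 and 22.3 CPM with TRMs, 57.4, 40.0 and 56.2 CPM with monocytes, and 7.47, 13.5 and 9.87 CPM alone. The second monocyte library was the lowest of its group for both Aurora kinases and still above all TRM libraries. Aurkb was 2.57-fold higher with TRMs (1.81 to 3.64; limma adjusted p = 0.00141) and 5.06-fold higher with monocytes (3.57 to 7.17; adjusted p = 2.88e-05).

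Melk (ENSMUSG00000035683.13, chr4:44300876-44364675, plus strand), a kinase of the AMPK-related family whose RNA peaks in mitosis, had 12.5, 22.5 and 17.4 CPM with TRMs, 33.8, 27.7 and 28.9 CPM with monocytes, and 8.37, 11.5 and 5.99 CPM alone. The lowest TRM library stood just above the highest alone library, the smallest gap of the 10 genes. Melk was 2.04-fold higher with TRMs (95% interval 1.36 to 3.06; limma adjusted p = 0.0177) and 3.61-fold higher with monocytes (2.41 to 5.4; adjusted p = 0.000324). The TRM call was lost without the third alone library (adjusted p = 0.0893), without the second TRM library (0.104) or without the third TRM library (0.0543).

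The Cdc25 phosphatases activate Cdk1 by removing the phosphates that Wee1 and Myt1 add. Cdc25b (ENSMUSG00000027330.16, chr2:131186949-131198497, plus strand) moved least of the 10 genes, with 43.6, 44.0 and 37.9 CPM with TRMs, 58.3, 57.5 and 58.1 CPM with monocytes, and 32.2, 28.1 and 29.9 CPM alone. Its coefficient of variation was the smallest of the 10 genes with monocytes (0.766%) and alone (6.97%). The fold was 1.39 with TRMs (1.12 to 1.73; limma, log2 difference 0.48, SE 0.14, adjusted p = 0.0357) and 1.93 with monocytes (1.56 to 2.4; log2 0.95, SE 0.14, adjusted p = 0.000423). The TRM call was not kept when values were scaled to library totals (adjusted p = 0.0821), nor without the first, the second or the third alone library (0.0646, 0.0897 and 0.108), the first or second TRM library (0.093 and 0.14) or the second monocyte library (0.0501). In the authors' deposited table of the TRM comparison, Cdc25b had a false discovery rate of 0.0804. Cdc25c (ENSMUSG00000044201.10, chr18:34732993-34751533, minus strand) had the lowest level per exon length of the 10 genes, with 7.10, 10.6 and 12.4 CPM with TRMs, 21.3, 23.2 and 25.6 CPM with monocytes, and 3.15, 5.32 and 3.47 CPM alone. It was 2.52-fold higher with TRMs (1.65 to 3.86; limma adjusted p = 0.00561) and 6.02-fold higher with monocytes (3.94 to 9.2; adjusted p = 4.42e-05). Exons of Cdc25b share 92 bases with Spef1 and those of Cdc25c 623 bases with Gm3550, each on the opposite strand; Spef1 averaged 6.37 ± 2.09 CPM with TRMs, 5.38 ± 2.18 CPM with monocytes and 6.32 ± 0.966 CPM alone (SD, n = 3 each).

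**Figure D2:**
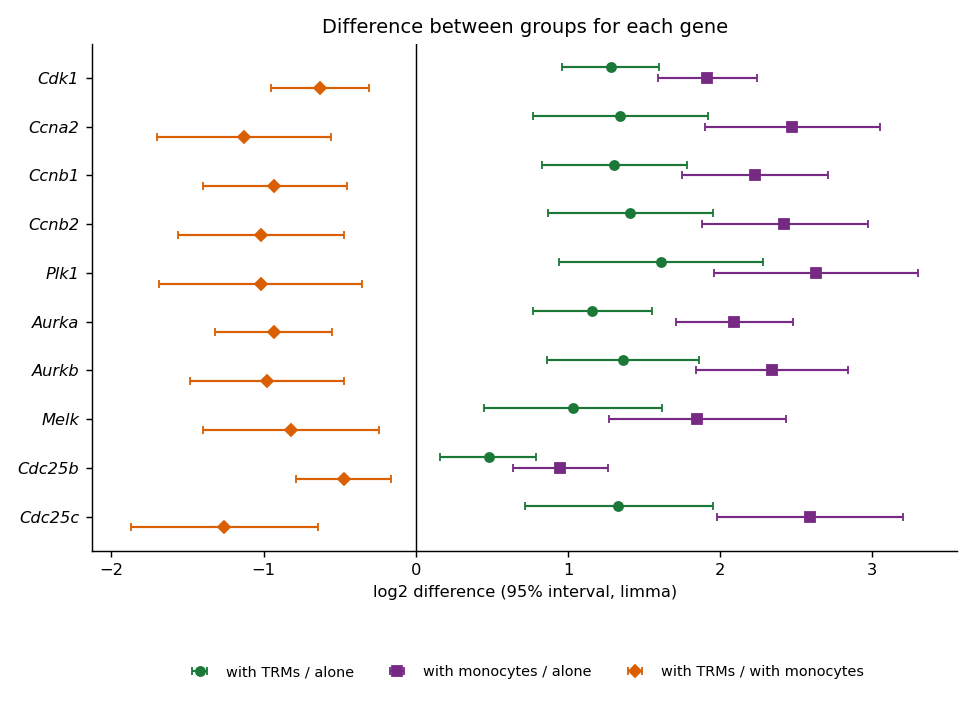
For each gene the points give the log2 difference (axis in log2 units) with TRMs minus alone (circles), with monocytes minus alone (squares) and with TRMs minus with monocytes (diamonds), and the whiskers its 95% interval from limma. All circles and squares lie right of 0 and all diamonds left of it; Cdc25b is nearest to 0, at 0.48, 0.95 and -0.47.

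Set directly against each other, TRM co-cultures were lower than monocyte co-cultures in all 10 genes, with a median log2 difference of -0.95 beside 0.00 over all tested genes. Every TRM library lay below every monocyte library for 10 of 10 genes, against 8.62% of tested genes. Only Aurka passed the threshold, at 0.524 times the level with monocytes (95% interval 0.401 to 0.685; limma, log2 difference -0.93, SE 0.18, adjusted p = 0.0441), where 0.073% of tested genes were called lower and 0.398% in either direction. The other 9 had adjusted p-values of 0.0771 (Cdc25c) to 0.23 (Melk), each with an unadjusted p under 0.05. Of 12326 tested genes, 1392 had an unadjusted limma p of 0.0474 or less, in either direction. Estimates of these other 9 genes ran from 0.419 times the monocyte level for Cdc25c (0.274 to 0.641) to 0.72 for Cdc25b (0.58 to 0.894). The Aurka call was lost on leaving out any of 8 libraries: the first or the third alone library (adjusted p = 0.0549 and 0.0725), the first, the second or the third TRM library (0.135, 0.136 and 0.171), or the first, the second or the third monocyte library (0.123, 0.088 and 0.0548), with log2 differences of -1.04 to -0.84 over these fits. Without the second alone library, 5 genes were called lower, namely Ccna2, Ccnb1, Aurka, Aurkb and Cdc25c.

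For a comparison between the genes, mean levels were divided by annotated exon length. That length joins the exons of all annotated transcripts of a gene, so the order depends on the annotation as well as on the level. Per kilobase of annotated exon, Ccna2, Plk1 and Aurka were highest with monocytes, at 34.6, 28 and 24.2 CPM per kb. With TRMs the highest were Ccna2 at 15.8, Plk1 at 13.7 and Cdk1 at 13.4 CPM per kb. Alone, Cdc25b led at 8.07 CPM per kb, ahead of Ccna2 at 6.54 and Aurka at 5.69 CPM per kb. Cdc25c was lowest in each group, at 2.04 CPM per kb with TRMs, 4.75 with monocytes and 0.809 alone. By these means Cdc25b stood above Ccna2 per kilobase in cells alone and below it in both co-cultures. In the second alone library the order was reversed, with Ccna2 at 10 and Cdc25b at 7.53 CPM per kb.

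**Figure D3:**
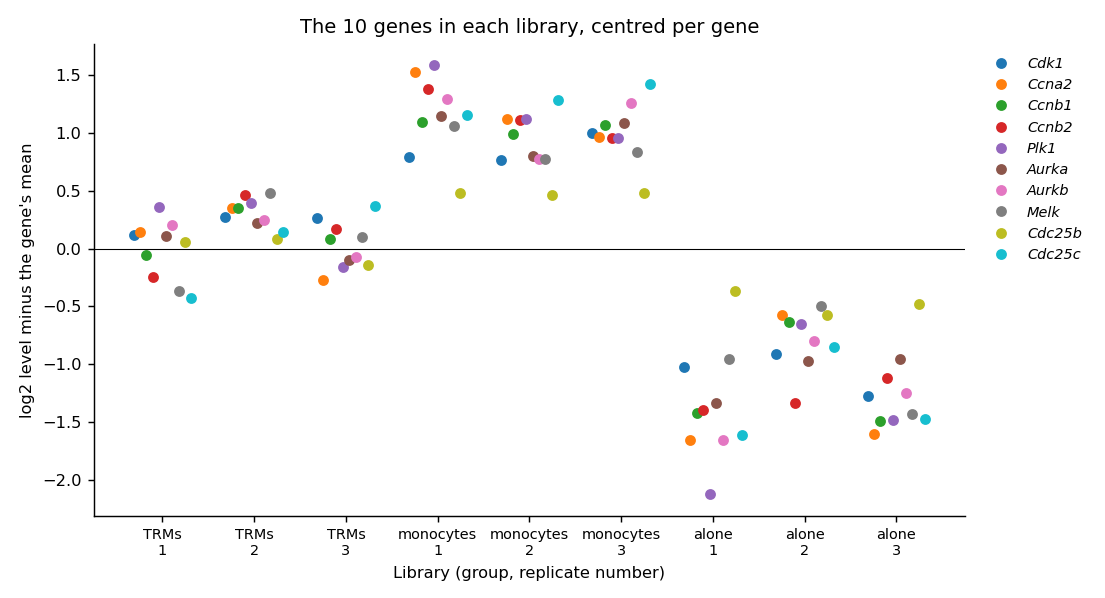
Each point is the log2 level of a gene (colour) in a library (horizontal axis: group and replicate number, genes offset sideways for legibility) minus that gene's mean over the 9 libraries (log2 units). TRM libraries lie near 0, monocyte libraries above and alone libraries below, with Cdc25b (olive) closest to 0 in the monocyte libraries and Plk1 lowest in alone 1.

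Within groups, most of the genes were highest in the same library, while the lowest library was shared by fewer. Among the TRM libraries the second was the highest for 9 of the 10 genes, all but Cdc25c. Among the monocyte libraries the first was the highest for 8, the exceptions being Cdk1 and Cdc25c. The second alone library was the highest of its group for 7, the exceptions being Ccnb2, Aurka and Cdc25b. With TRMs the lowest library was the first for 5 genes and the third for 5. With monocytes it was the second for 6, the third for 3 and the first for Cdc25c. Alone it was the first for 6, the third for 3 and the second for Cdc25b. Over the 9 libraries, the Pearson correlation of a gene's log2 level with the mean of the other 9 ran from 0.945 for Cdc25b to 0.992 for Ccnb1, a description in which the group differences weigh heavily. Outside the 10, the genes most correlated with their mean profile over the 9 libraries were Cdc20 (r = 0.998), Racgap1 (0.995), Tspan4 (0.992), Tacc3 (0.992), Cdc45 (0.991), Tpm1 (0.991), Ube2c (0.991) and Birc5 (0.990). Cdc20, the activator of the anaphase-promoting complex, was at 48.7, 64.4 and 48.7 CPM with TRMs, 113, 96.6 and 98.5 CPM with monocytes and 20.2, 26.1 and 18.8 CPM alone. Tspan4, a tetraspanin, was at 96.9, 110 and 95.3 CPM with TRMs, 171, 146 and 146 CPM with monocytes and 58.2, 75.8 and 53.4 CPM alone. The others follow the same order, down to the folds of Tpm1, a tropomyosin, of 1.39 with TRMs and 1.72 with monocytes.

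Among 18 regulators of Cdk1-cyclin activity, 5 rose and 2 fell with TRMs, and 6 rose and 2 fell with monocytes, where 10.2% of tested genes were called higher and 8.15% lower with TRMs, and 14.7% higher and 12.7% lower with monocytes; the list's median log2 difference was 0.05 and 0.04. The genes that fell were the same in both, and 2 of 18 is near the share over all genes in each comparison. Wee1, the kinase that holds Cdk1 inactive, was at 57.0, 62.7 and 65.4 CPM with TRMs, 54.3, 71.1 and 43.0 CPM with monocytes and 108, 119 and 146 CPM alone. Its level with TRMs was 0.5 times that alone (95% interval 0.38 to 0.658; limma adjusted p = 0.00219) and with monocytes 0.446 times (adjusted p = 0.000537), opposite in direction to Cdk1 and with no overlap between co-culture and alone libraries. Cdc14a, a phosphatase whose budding yeast relative reverses Cdk phosphorylation, was at 27.7 ± 2.12 CPM with TRMs, 20.4 ± 6.34 CPM with monocytes and 54.2 ± 9.99 CPM alone (SD, n = 3 each; limma adjusted p = 0.0107 and 0.00055). Without the third alone library the Cdc14a call with TRMs was lost (adjusted p = 0.058). The genes that rose with TRMs were Cks1b and Cks2, small subunits of Cdk complexes, Ccnf, the F-box cyclin, Cdkn1a, a Cdk inhibitor, and Ppp1ca, a phosphatase catalytic subunit. Ccnf was 2.79-fold higher with TRMs and 4.43-fold higher with monocytes (limma adjusted p = 0.00348 and 0.000201), and Cks1b 1.65-fold and 2.51-fold (0.0078 and 9.88e-05). Cdkn1a averaged 128 ± 20.7 CPM with TRMs, 81.2 ± 5.74 CPM with monocytes and 82.7 ± 27.3 CPM alone (SD, n = 3 each); it was called higher with TRMs (limma adjusted p = 0.0348) and not with monocytes (0.949); its difference between the co-cultures was not called (adjusted p = 0.201). The count of 5 fell to 2 without the first alone, the third alone or the second TRM library and to 3 without the first or the third TRM library or with values scaled to library totals, Ccnf and Cks1b being called in each. Pkmyt1, which encodes Myt1 and is named for that role after its values were seen, was 1.78-fold higher with monocytes (adjusted p = 0.0232), a call lost without the first or the third alone or the first monocyte library. Mastl was 1.72-fold higher with monocytes (limma adjusted p = 0.0132), a call lost without the first alone or the second monocyte library (0.0528 and 0.0562). Without the third monocyte library the 2 genes called lower with monocytes became 4. Cdc25a, the remaining Cdc25 phosphatase, was at 36.7 CPM with TRMs, 37.0 CPM with monocytes and 29.7 CPM alone and was not called (adjusted p = 0.283 and 0.235).

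Of 16 partners and substrates through which Plk1 and the Aurora kinases act, 10 rose with TRMs and 11 with monocytes, where 10.2% and 14.7% of tested genes were called higher. None was called lower by limma and none was lower at an unadjusted p under 0.05, with a median log2 difference of 0.99 and 1.68. Kif20a, the mitotic kinesin that recruits Plk1 to the midzone, was 3.49-fold higher with TRMs and 6.67-fold higher with monocytes (limma adjusted p = 0.000111 and 7.15e-06). Prc1, the midzone bundling protein, was 2.91-fold and 4.46-fold higher, and Tacc3, an Aurora A substrate at the spindle, 2.27-fold and 3.8-fold (adjusted p = 0.000231, 1.97e-05, 0.000337 and 9.67e-06). Birc5, which encodes survivin of the Aurora B complex, had 26.9, 29.4 and 25.4 CPM with TRMs, 51.2, 52.2 and 56.1 CPM with monocytes and 6.89, 13.7 and 8.19 CPM alone. Its folds of 2.96 with TRMs and 5.79 with monocytes (limma adjusted p = 0.000486 and 1.47e-05) came with no overlap between groups. Tpx2, the spindle activator of Aurora A, named here for that role after its values were seen, was at 52.3 ± 4.51 CPM with TRMs, 77.7 ± 12.4 CPM with monocytes and 24.2 ± 8.88 CPM alone (SD, n = 3 each; adjusted p = 0.00278 and 0.000135). The 5 not called with monocytes were Bora, Cep192, Ckap5, Nedd1 and Ajuba. With TRMs these and Kif20b were not called. Between the co-cultures limma called none of the 16, while 11 were lower with TRMs at an unadjusted p under 0.05. Over all 12326 tested genes, 1392 had an unadjusted limma p of 0.0474 or less, in either direction. Of the 16, limma-voom called 4 and DESeq2 7, beside 86 and 329 of all tested genes in either direction.

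**Figure D4:**
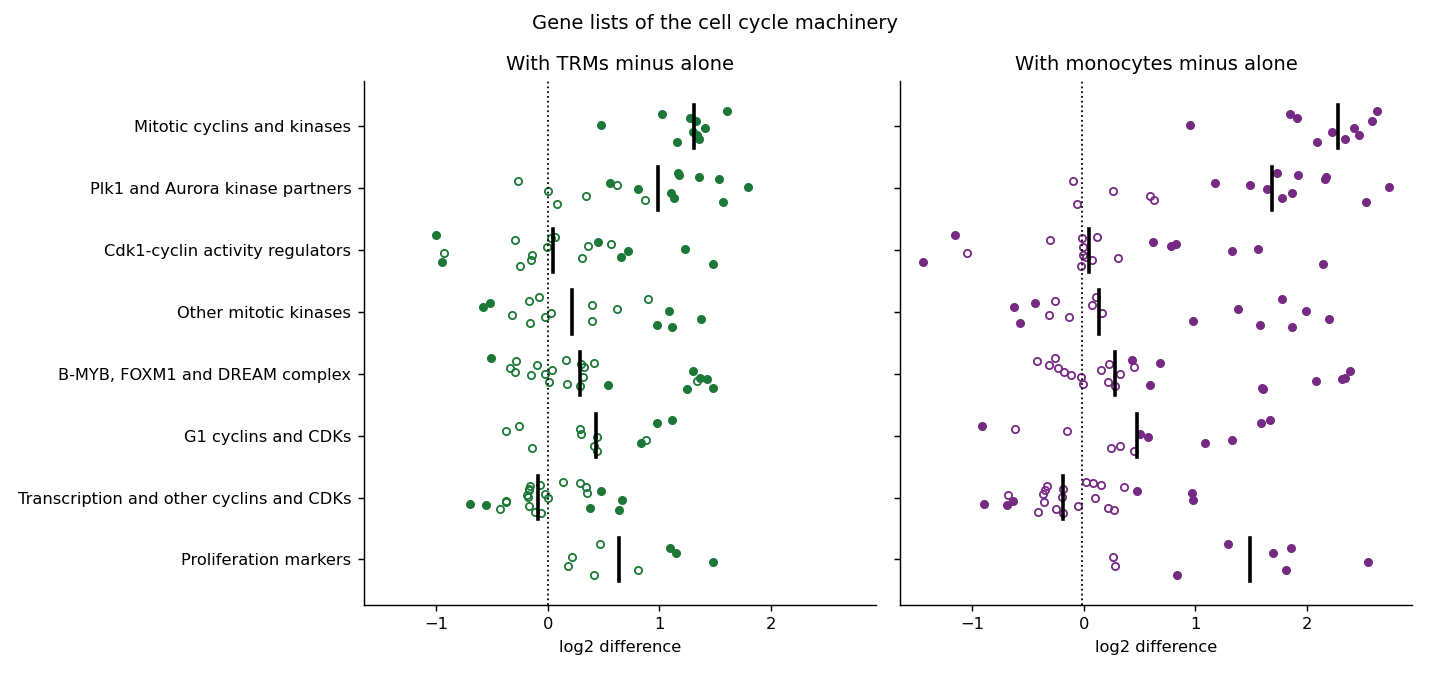
Each point is a gene's log2 difference (horizontal axis) with TRMs minus alone (left) and with monocytes minus alone (right), in the 10 mitotic genes and 7 related lists; filled points passed an adjusted p under 0.05, bars mark list medians and the dotted line the median of all tested genes. The medians of the 10 genes are 1.32 and 2.28, those of the Plk1 and Aurora kinase partners 0.99 and 1.68, and those of the other 6 lists lie between -0.09 and 0.64 on the left and between -0.19 and 1.49 on the right.

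Of 16 tested genes in a broad list of other kinases linked to mitosis, 4 rose and 2 fell with TRMs, and 7 rose and 3 fell with monocytes. Of all tested genes 10.2% were called higher and 8.15% lower with TRMs, and 14.7% higher and 12.7% lower with monocytes, so the falls of 2 and 3 of 16 genes are near the share over all genes. Those that rose with TRMs were the checkpoint kinases Bub1 (2.17-fold) and Bub1b (1.97-fold), the centrosomal kinase Nek2 (2.6-fold) and Pbk (2.14-fold), and all 4 also rose with monocytes, by 3.65-fold, 2.99-fold, 4.6-fold and 3.96-fold. Pbk had 27.2, 24.7 and 23.3 CPM with TRMs, 48.4, 48.1 and 43.0 CPM with monocytes and 10.6, 13.2 and 11.5 CPM alone. It was called lower with TRMs than with monocytes (0.539 times; limma adjusted p = 0.0444), a call lost on leaving out any library but the second alone or the third monocyte library, and lost with only the compared groups in the fit (0.0504). The kinases that fell with TRMs were Slk, at 0.671 times its level alone, and Tlk1, at 0.698 times (adjusted p = 0.00872 and 0.0276). With monocytes Slk, Tlk1 and Csnk2a1 were at 0.645, 0.737 and 0.672 times the alone level. The count of 2 fell to 1 without the second or the third alone or the first TRM library and to 0 without the second TRM library, and the count of 3 fell to 1 without the first or second alone or the first monocyte library. Among the 4 tested relatives of Plk1 and Cdc25, Plk2, a stress-responsive Polo-like kinase, fell to 768, 886 and 890 CPM with TRMs and 451, 876 and 1092 CPM with monocytes, against 1627, 1711 and 1897 CPM alone (limma adjusted p = 0.00988 and 0.00292). Plk4, the centriole duplication kinase, rose 2.6-fold with monocytes (adjusted p = 0.00197).

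Of 23 transcription regulators of the mitotic genes (B-MYB, FOXM1, E2F and DREAM subunits), 6 rose and 1 fell with TRMs, and 9 rose with monocytes, where limma called none lower (0 at an unadjusted p under 0.05, and 1 called without the second alone library). Of all tested genes 10.2% were called higher and 8.15% lower with TRMs, and 14.7% higher and 12.7% lower with monocytes. The list's median log2 differences were 0.29 and 0.28. The rise of E2f4 with TRMs was lost without the first or the third alone library or any TRM library, and with values scaled to library totals. With monocytes, the rises of Rbl1, E2f4 and Tfdp1 were lost without the first or the third alone library, and each in further alternatives. Foxm1, the activator of G2 and M genes, had 57.5, 74.9 and 63.7 CPM with TRMs, 169, 121 and 101 CPM with monocytes and 17.7, 38.9 and 23.0 CPM alone. It was 2.59-fold higher with TRMs and 5.06-fold higher with monocytes (limma adjusted p = 0.00261 and 4.53e-05). Mybl2, which encodes B-MYB, was at 10.2, 13.1 and 9.83 CPM with TRMs, 32.1, 18.9 and 20.8 CPM with monocytes and 3.32, 5.86 and 4.52 CPM alone, 2.46-fold and 5.23-fold higher (adjusted p = 0.00655 and 7.51e-05). E2f1 rose 2.38-fold with TRMs and 3.04-fold with monocytes, and the atypical E2F gene E2f8 2.69-fold and 4.98-fold. The MuvB core subunits Lin9, Lin37, Lin52, Lin54 and Rbbp4 and the NF-Y subunits Nfya, Nfyb and Nfyc were not called in any of the comparisons, with log2 differences from alone between -0.34 (Nfyb with TRMs) and 0.45 (Nfyc with monocytes). Tfdp2, an E2F partner, was the gene that fell with TRMs, at 0.702 times its level alone (adjusted p = 0.0245), a call lost without the second or the third alone or the first or second TRM library.

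Of 12 G1 cyclins, Cdks and their inhibitors, 3 rose with TRMs (Ccne1, Cdkn2c and Cdkn2d; 5 without the first monocyte library), and with monocytes 6 rose and 1, Cdkn2b, fell (2 without the first monocyte library), where 10.2% of tested genes were called higher with TRMs, and 14.7% higher and 12.7% lower with monocytes. With TRMs, the Ccne1 call was lost without the second TRM library (limma adjusted p = 0.0527) and the Cdkn2c call without the first TRM library (0.0587). With monocytes, the rises of Ccne2 and Cdk4 were lost without the third alone or the third monocyte library. That of Ccne2 was also lost without the first alone or the second monocyte library. Cdkn2d, an inhibitor of the D-cyclin kinases, rose 2.18-fold with TRMs and 3.18-fold with monocytes (limma adjusted p = 0.00534 and 0.000267). Ccnd1, which encodes cyclin D1, was at 188 CPM with TRMs, 192 CPM with monocytes and 138 CPM alone and was not called (adjusted p = 0.0804 and 0.0583). Of 24 transcription-related and other cyclins and kinases, 4 rose and 2 fell with TRMs and 3 rose and 3 fell with monocytes. Over all tested genes, 10.2% rose and 8.15% fell with TRMs, and 14.7% rose and 12.7% fell with monocytes, so the 2 falls with TRMs and both counts with monocytes are near the share over all genes. The cyclins L, Ccnl1 and Ccnl2, which act in splicing, fell in both, Ccnl2 to 0.614 times its level alone with TRMs and 0.535 times with monocytes (adjusted p = 0.00561 and 0.000773). The rises with TRMs (Ccny, Cdk16, Ccng2 and Ccni) numbered 2 without the first alone, the third alone or the third TRM library and 1 without the second TRM library; the falls with monocytes (Ccnl1, Ccnl2 and Ccnt2) numbered 5 with values scaled to library totals, and that of Ccnt2 was lost without the first or the third alone or the first monocyte library. The rises with monocytes were Ccny, Cdk14 and Cdk16, of which Cdk16 was not called without the first or the third alone library. Of 8 proliferation markers, 3 rose with TRMs (Top2a, Rrm2 and Tk1; 5 without the second alone library) and 6 with monocytes, beside 10.2% and 14.7% of tested genes. Top2a was 2.15-fold and 3.63-fold higher (adjusted p = 0.000425 and 9.67e-06). Pcna (1.14-fold and 1.21-fold) and Stmn1 (1.17-fold and 1.2-fold) were called in neither comparison (limma adjusted p = 0.535, 0.278, 0.382 and 0.251). Mki67 was at 45.5, 41.2 and 39.6 CPM with TRMs, 142, 81.2 and 51.6 CPM with monocytes and 20.9, 31.4 and 21 CPM alone, and was called higher with monocytes (3.51-fold, limma adjusted p = 0.000575) but not with TRMs (0.0692); its difference between the co-cultures was not called (0.158).

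The sorted cells carried markers of epithelium. Of 8 epithelial markers 7 were in the table, and their summed level was 15043 to 18829 CPM with TRMs, 10304 to 16165 CPM with monocytes and 14868 to 16649 CPM alone; Nkx2-1 was not in it. Of the 7, limma called Cldn4 lower with TRMs and Cldn4 and Cdh1 lower with monocytes (4 markers without the third monocyte library), where 8.15% and 12.7% of tested genes were called lower. The Cldn4 call with TRMs was lost with edgeR (adjusted p = 0.0705). It was also lost without the first or the third alone, the second or the third TRM or the second monocyte library. Of 23 myeloid markers 14 were in the table, with a summed level of 198.0 to 351.5 CPM with TRMs, 196.9 to 289.6 CPM with monocytes and 201.4 to 292.4 CPM alone, of which Cd14 averaged 128 ± 65.1, 123 ± 37.6 and 166 ± 55.8 CPM in the same order of groups (SD, n = 3 each). Ptprc, the pan-leukocyte marker, averaged 1.95 ± 2.19 CPM with TRMs, 0.241 ± 0.287 CPM with monocytes and 1.93 ± 1.34 CPM alone (SD, n = 3 each), and had no read in the third monocyte library. Itgax had no read in the second TRM library, and Siglecf and Itgam none in the first monocyte library. Of the 14, Mrc1 and F13a1 rose in both co-cultures, where 10.2% of tested genes rose with TRMs and 14.7% with monocytes: Mrc1 averaged 32.9 ± 9.27 CPM with TRMs, 39.2 ± 7.49 CPM with monocytes and 5.12 ± 0.211 CPM alone, and F13a1 13.4 ± 3.82, 13.4 ± 5.38 and 0.96 ± 0.303 CPM (limma adjusted p from 4.14e-05 to 8.28e-06). Of the 14, 4 were lower with monocytes than alone (Ptprc, Chil3, Siglecf and Plac8; 1 or 2 without the first, the second or the third alone or the first monocyte library, and 2 with edgeR or limma-voom), beside 12.7% of tested genes. Of 11 markers of endothelial, stromal and lymphoid cells 4 were in the table, and limma called none of them (0 at an unadjusted p under 0.05). The part of these transcripts in the levels of the mitotic genes was not tested. Immediate early and heat shock genes, which respond to dissociation, summed to 21090 to 22684 CPM with TRMs, 15320 to 18401 CPM with monocytes and 20820 to 29343 CPM alone. Of the 11 genes, 1 rose and 2 fell with TRMs, and 5 fell with monocytes, beside 10.2% of tested genes higher and 8.15% lower with TRMs and 12.7% lower with monocytes. Hspa1a, a heat shock gene with a near-identical copy, Hspa1b, was the gene that rose, at 16.2 ± 6.77 CPM with TRMs and 5.17 ± 0.926 CPM alone (SD, n = 3 each; limma adjusted p = 0.00722), while Hspa1b was not called. The transcription factor genes Jun and Atf3 fell with TRMs, and Jun, Atf3, Fos, Fosb and Zfp36 fell with monocytes. The falls with TRMs numbered 1 without the first alone, the third alone or the second TRM library and 4 without the second alone library. Those with monocytes numbered 3 without the first alone, the third alone or the second monocyte library, and up to 7 without the second alone library. The 8 mitochondrially encoded genes in the table took 0.316% to 0.622%, 0.288% to 0.58% and 0.523% to 0.667% of reads in the same order of groups; their part in the differences was not tested either.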

How the data were processed

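RNA of sorted GFP-positive tumour cells was sequenced in 9 libraries, 3 each with TRMs, with monocytes and alone, grouped by the sample labels. Per the submitters' processing notes, reads were processed with STAR 2.5 and edgeR on the mm10 build; how reads were counted, with which strand setting and annotation, is not given in the sources used here. In the deposited table is a normalised signal per gene in CPM. Values are whole reads with 0.5 added, divided by a scaled library size; whole reads were recovered for 111051 of 111051 values (100%, tolerance 1e-06). The authors' deposited tables of their comparisons hold log2 fold changes, a likelihood ratio score, p-values and false discovery rates, per the file headers; 1 false discovery rate is quoted.

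Genes were kept by edgeR's filterByExpr on the recovered reads (minimum count 10, minimum total 15; 12326 of 12339). Log2 deposited values were tested with limma 3.58.1 (R 4.3.3) with a mean-variance trend over all 9 libraries and group means as terms, which leaves 6 residual degrees of freedom. Tests were two-sided, with Benjamini-Hochberg adjustment over all tested genes and a call at an adjusted p under 0.05. The added 0.5 read makes folds understate changes of low genes. Alternatives used edgeR 4.0.16, DESeq2 1.42.0 and limma-voom on recovered reads, other filters, scaling and pseudocounts, a replicate block and leaving out each library. The procedure was tested on simulated counts. No 2 libraries of a group agreed within sampling noise: the chi-square of reads per gene lay between 21.1 and 90.5.

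The 10 genes and the gene lists were chosen with earlier results of these data known, so counts over them are descriptions, given beside the share of all tested genes. Named from each list were up to 4 called genes with the smallest p per comparison and the genes behind counts of 5 or fewer. Some genes whose calls were lost in an alternative, or that were not called, are named besides. Likeness named the 8 genes with the highest correlation. Positions and exon lengths come from GENCODE M21 (GRCm38), similar transcripts from blastn 2.17.0 at 95% identity or more, and promoters from RefSeq (GRCm38.p6).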

Additional observations from a re-analysis of the deposited data

Results flagged for a closer look

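For Aurka the test of the difference between the co-cultures passed the threshold when all 9 libraries were used: the log2 level with TRMs minus that with monocytes was -0.93 (limma, SE 0.18, adjusted p = 0.0441). The call was lost on leaving out any of 8 libraries, all but the second alone library (adjusted p = 0.0548 to 0.171), so these data do not set Aurka apart from the other genes. Its level was 28.2 to 35.3 CPM with TRMs and 52.8 to 66.9 CPM with monocytes, against 12.0 to 15.7 CPM alone, and every TRM library lay below every monocyte library. The other 9 genes differed in the same direction with log2 differences of -1.26 to -0.47 and did not pass the threshold. Groups of 3 libraries were too small for a check of outlying libraries.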

How the results depend on the processing

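Under 18 alternatives (9 that leave out a library and 9 others), the 540 values of the 10 genes never changed direction; 503 stayed on the same side of the threshold, 19 calls were lost and 18 gained. Against alone, no monocyte call was lost in any alternative; the losses with TRMs fell on Melk and Cdc25b. Between the co-cultures the count of 1 gene called became 8 with DESeq2, 5 with limma-voom and 3 with only the compared groups in the fit, and ran from 0 to 5 on leaving out a library.

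Over all genes, leaving out a library moved the 2262 calls with TRMs against alone to between 1219 (without the second TRM library) and 2593, and the 3366 with monocytes against alone to between 2239 (without the third alone library) and 3529. The 49 calls between the co-cultures became 75 with log2(value + 1), 329 with DESeq2, 86 with limma-voom, and 0 to 134 on leaving out a library.

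Replicate numbers were not taken to pair libraries, and these data do not settle whether they do. Correlations of library deviations from group means ran from -0.0246 to 0.429 for same-numbered libraries and from -0.401 to 0.265 for differently numbered ones. Calls against alone numbered 2392 with TRMs and 3511 with monocytes under the replicate block, beside 2262 and 3366 without it. With the replicate block, 79 genes were called between the co-cultures, Aurka (adjusted p = 0.0545) and Pbk (0.0502) were not, and Ccna2 was (0.045).

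Scaling to library totals moved the median of all genes by -0.085 log2 with TRMs, -0.05 with monocytes and -0.036 between the co-cultures. The causes of these changes were not tested. Each of the 10 genes had at least 70 reads in its lowest library.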
